A study of Mus musculus with 5 samples.

Results

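The genes described here are those of cholesterol and fatty acid synthesis: the enzymes that build sterols from acetyl-CoA, the sensors and transcription factors that control them, and the enzymes that make, desaturate and elongate fatty acids. The list has 34 genes, of which 33 were measured among the 19938 genes that the arrays name. A gene was taken as measured where a probe set carried its symbol alone in the platform's annotation, and among several such probe sets the one brightest on average was kept. Acat2 had no such probe set and was not analysed here. Of the 33 genes, 17 are sterol synthesis enzymes, 6 are sterol control and transport genes and 10 are fatty acid genes.

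Bone marrow cells of 5 populations from wild-type C57Bl/6 mice, sorted without treatment, were measured on 1 array each, and the sources used here give neither age and sex nor how many animals made up a sample. All were negative for lineage markers and positive for CD115. The monocyte-dendritic cell progenitor (MDP) was CD117+ CD135+, the common dendritic cell progenitor (CDP) CD117int CD135+ and the common monocyte progenitor (cMoP) CD117+ CD135-. The classical monocyte was Ly6C+ TremL4- and the nonclassical monocyte Ly6C- TremL4+. There are no replicates, so no difference has an error or a p-value, and each compares 2 arrays. In such bulk samples, fewer cells of a type and less RNA per cell cannot be told apart.

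Cholesterol is made from acetyl-CoA through mevalonate, isoprenoid units, squalene and lanosterol. When sterol in the endoplasmic reticulum is low, SCAP escorts the SREBP transcription factors, encoded by Srebf1 and Srebf2, to the Golgi, where they are cut and released to switch on these genes; the INSIG proteins hold SCAP back when sterol is plentiful. SREBP2 acts mainly on sterol genes and SREBP1 mainly on fatty acid genes. Growing and dividing cells need both products for new membrane.

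The regulatory sequence of these genes is shown first, because SREBPs are known to act together with the factors NF-Y and Sp1 at promoters of this pathway. RefSeq promoter windows (GRCm38.p6), from 250 bases before to 50 bases after a gene start, were found for 26 of the 33 genes. They were searched on both strands for TCACNCCAC (a sterol regulatory element), CACGTG (an E-box), CCAAT (the NF-Y box) and GGGCGG (the GC box bound by Sp1). CCAAT lay in a window of 14 of the 14 sterol synthesis enzymes that had one, and of 4 of 7 fatty acid genes. Among the 8898 genes with a window whose value reached the floor defined below on at least 1 array, 42.37% held it, as did 41.06% of all 27025 genes with a window. GGGCGG lay in 13 of the 14 sterol enzymes and 3 of the 7 fatty acid genes, against 67.61% of the same 8898 genes and 38.2% of all 27025. CACGTG was found in 6 of the 26 genes (Dhcr7, Elovl5, Hsd17b7, Insig1, Sc5d and Scap), against 11.89% and 8.09%. TCACNCCAC was found in 1, Hmgcs1, against 1.36% and 1.44%. Fdps, Sqle, Fdft1, Scd1, Scd2, Fads1 and Stard4 had no entry. Some genes have several windows, and base composition was not matched. Such a match describes letters, not a bound site, and sites that depart from these patterns were not counted.

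The 250 bases before the start of 5 genes are printed 5′ to 3′ along the gene, with matches to any of these motifs in capitals. The genes are Hmgcs1 (chr13:119690101-119690350, plus strand), which holds the sterol element; Idi1 (chr13:8885356-8885605, plus strand), Sc5d (chr9:42264301-42264550, minus strand) and Fasn (chr11:120824548-120824797, minus strand), which were all lower in the nonclassical than in the classical monocyte; and Fads2 (chr19:10101504-10101753, minus strand), whose values followed another pattern.
Hmgcs1: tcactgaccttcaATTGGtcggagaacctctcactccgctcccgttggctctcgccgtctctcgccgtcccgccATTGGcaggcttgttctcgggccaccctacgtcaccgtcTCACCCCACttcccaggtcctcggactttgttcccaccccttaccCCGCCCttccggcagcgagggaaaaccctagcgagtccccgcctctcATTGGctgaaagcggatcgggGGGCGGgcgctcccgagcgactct
Idi1: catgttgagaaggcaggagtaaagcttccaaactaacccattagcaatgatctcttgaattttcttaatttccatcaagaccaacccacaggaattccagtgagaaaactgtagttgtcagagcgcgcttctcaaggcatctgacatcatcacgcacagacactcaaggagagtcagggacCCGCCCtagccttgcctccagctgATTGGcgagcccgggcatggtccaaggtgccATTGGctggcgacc
Sc5d: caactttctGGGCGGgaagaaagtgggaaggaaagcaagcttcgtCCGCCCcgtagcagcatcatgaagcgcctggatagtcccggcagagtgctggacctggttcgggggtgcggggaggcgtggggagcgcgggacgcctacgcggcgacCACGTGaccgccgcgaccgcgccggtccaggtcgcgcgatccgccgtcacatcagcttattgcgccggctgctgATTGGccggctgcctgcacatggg
Fasn: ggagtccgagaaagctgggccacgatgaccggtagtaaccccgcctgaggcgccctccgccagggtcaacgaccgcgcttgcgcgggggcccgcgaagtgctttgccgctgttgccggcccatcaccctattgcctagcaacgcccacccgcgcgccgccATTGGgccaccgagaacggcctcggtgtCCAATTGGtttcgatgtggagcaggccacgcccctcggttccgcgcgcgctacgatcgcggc
Fads2: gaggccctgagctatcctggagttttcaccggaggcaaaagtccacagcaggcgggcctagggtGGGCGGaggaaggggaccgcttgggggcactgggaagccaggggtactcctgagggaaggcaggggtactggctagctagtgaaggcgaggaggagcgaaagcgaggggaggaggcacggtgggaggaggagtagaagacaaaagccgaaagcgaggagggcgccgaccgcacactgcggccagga
In these stretches CCAAT, read on either strand, occurs 3 times in Hmgcs1, 2 times in Idi1, 1 time in Sc5d, 3 times in Fasn, where 2 of the matches overlap, and 0 times in Fads2. The single capital stretch of Fads2 is a GC box. The printed genes are examples, and whether CCAAT goes with the difference between the monocytes was not tested. CCAAT also lay in windows of Elovl5, Insig2 and Srebf1, which were not lower in the nonclassical monocyte. Elovl6, which was lower there, had a window without it. The sterol element of Hmgcs1 begins at position -137 from the start.

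The values are deposited log2 values, 1 per probe set and array, so a difference of 1 log2 unit is 2-fold. A difference was counted where 2 arrays lay 1 log2 unit or more apart and the higher value reached a floor of 6.27, the median of all named genes. The floor marks the middle of the value range and is not a measured background. Where the lower value was under the floor, the fold is given as at least the fold over the floor. Of the 33 genes, 26 were at or above the floor on all 5 arrays, 5 on some and 2 (Lss and Scd1) on none. At least 2 arrays held exactly the same value in 13 of the 33 genes, as in 46.6% of all probe sets, so small differences may be missing from the table. Levels of different genes come from different probe sets and are not compared with each other.

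**Figure D1:**
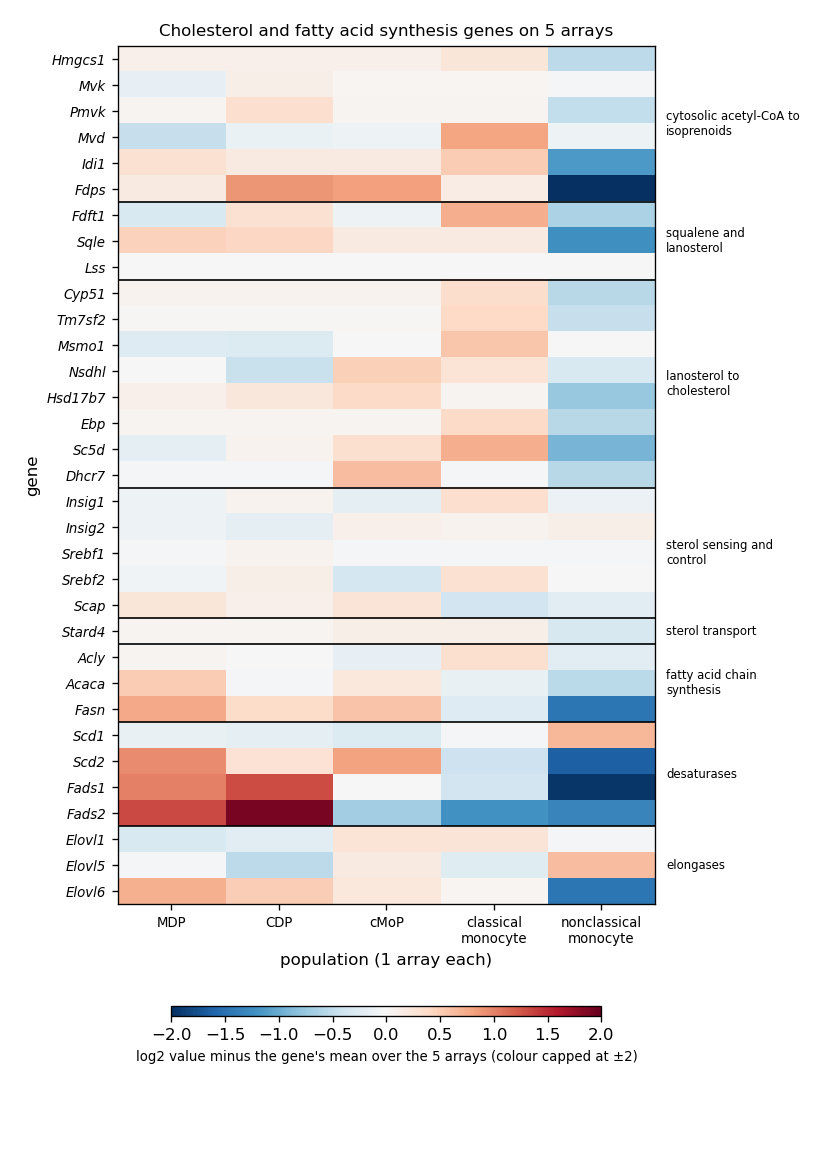
Heat map of the 33 measured genes (rows, grouped by role) on the 5 arrays (columns), where colour is the log2 value minus the gene's own mean over the 5 arrays. The nonclassical monocyte column is blue for most sterol and fatty acid enzymes and paler for the control genes, and Fads1 and Fads2 are red in MDP and CDP.

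The labels were checked with the genes of the sort markers. Kit (CD117) was at 10.11 in MDP, 8.16 in CDP and 9.37 in cMoP and under the floor in both monocytes. Flt3 (CD135) was at 10.75 and 10.74 in MDP and CDP and at 6.4 in cMoP, and Treml4 was at 11.78 in the nonclassical monocyte and at most 6.18 elsewhere. Csf1r (CD115) lay between 10.03 and 12.21 on the 5 arrays, and the Ly6C side of the gates was not checked. Markers of other cell types reached the floor in part, as did 9831 to 10167 of the 19938 named genes, depending on the array. At or above it were 1 to 5 of 9 erythroid genes, 2 to 5 of 7 megakaryocyte genes and 2 to 4 of 10 B cell genes. So were 2 to 4 of 11 T and NK cell genes, 2 or 3 of 12 macrophage genes and 2 or 3 of 10 basophil, mast cell and eosinophil genes. The highest values of these lists, in the same order, were Tfrc at 10.01 in CDP, Itgb3 at 7.31 in the classical monocyte and Cd79b at 9.5 in cMoP. For the later lists they were Nkg7 at 11.7 in cMoP, Adgre1 at 11.25 in the nonclassical monocyte and Mcpt8 at 8.95 in MDP. Of 12 neutrophil genes, several of which monocytes also express, 4 to 7 reached the floor.

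Most of the 2-fold differences lay between the monocytes, a comparison of the Ly6C- subset with the Ly6C+ subset. Of the 30 genes past the floor, 9 were lower by 1 log2 unit or more in the nonclassical monocyte, where 9.82% of all 10503 genes past the floor were. None was 2-fold higher (0 of 30), where 3.55% of all genes were, although after quantile normalization Elovl5 was (1.07). The 9 lower genes span the sterol path (Idi1, Fdps, Fdft1, Sqle and Sc5d) and the fatty acid path (Fasn, Scd2, Elovl6 and Fads1). At 1.5-fold, 15 of the 30 were lower, against 21.7% of all genes. The median difference over the 33 genes was -0.57 log2 units, against 0.01 over all named genes. All 16 sterol synthesis enzymes past the floor were lower in the nonclassical monocyte, 5 of them by 2-fold or more and 11 by 1.5-fold or more. By any margin, 56.3% of all genes past the floor were lower there.

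**Figure D2:**
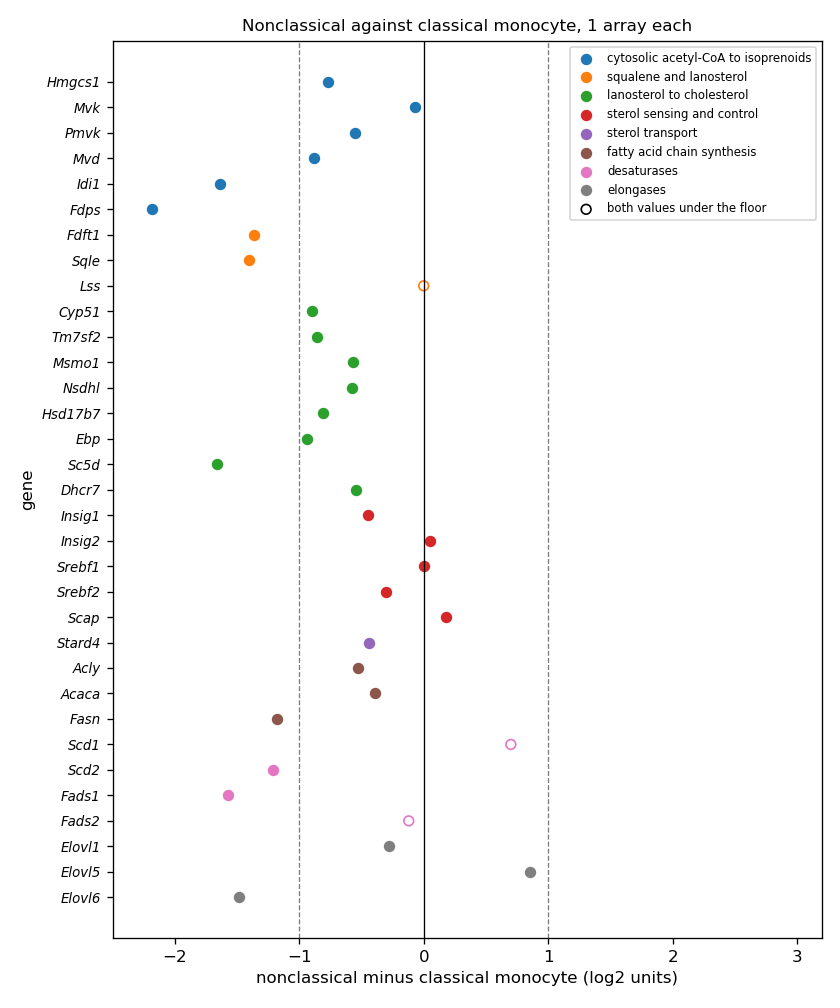
Difference between the nonclassical and the classical monocyte array (x axis, log2 units) for each of the 33 genes (y axis), coloured by role, with dashed lines at 2-fold and open circles where both values lay under the floor. Filled points of the sterol enzymes all lie left of 0, down to -2.18 for Fdps, while the 5 sensing and control genes lie between -0.45 and 0.18.

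Along the sterol path, the first steps make isoprenoid units from acetyl-CoA. Fdps, which joins these units into farnesyl diphosphate, was at 8.77 in MDP, 9.48 in CDP, 9.41 in cMoP, 8.75 in the classical and 6.56 in the nonclassical monocyte. The last value stands alone below the other 4 arrays, and it was 4.54-fold lower than in the classical monocyte (-2.18). Idi1, the isomerase that turns the first isoprenoid unit into its reactive partner, was at 7.35, 7.22, 7.22, 7.55 and 5.90 in the same order of arrays. It was at least 2.42-fold lower in the nonclassical monocyte (-1.64), and its second probe set gave a difference of -1.59. Mvd, the decarboxylase that yields the first of these units, was at 6.78, 7.12, 7.15, 8.03 and 7.15. Here the classical monocyte stood out as the high array, and the nonclassical monocyte equalled cMoP at this precision. Hmgcs1, which makes hydroxymethylglutaryl-CoA, was at 7.14 on all 3 progenitor arrays, 7.29 in the classical and 6.52 in the nonclassical monocyte, a difference of -0.77. The mevalonate kinases varied less: Pmvk ranged over 0.83 log2 units and was lowest in the nonclassical monocyte, and Mvk ranged over 0.29 and was lowest in MDP.

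The path then runs through squalene to lanosterol. Fdft1, squalene synthase, was at 7.46, 8.07, 7.66, 8.50 and 7.14 in MDP, CDP, cMoP, classical and nonclassical monocyte. It was 2.57-fold lower in the nonclassical than in the classical monocyte (-1.36), and its second probe set gave a difference of -1.03. Sqle, the epoxidase that controls the flow into sterols, was at 7.78, 7.73, 7.50, 7.50 and 6.10. It differed little among the first 4 arrays and was at least 2.34-fold lower in the nonclassical monocyte (-1.40). Lss, which closes the ring to lanosterol, was at 5.77 on all 5 arrays, under the floor, and gave no information.

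From lanosterol to cholesterol, 8 enzymes were measured and all 8 were lower in the nonclassical than in the classical monocyte, with a median difference of -0.83. Over all genes past the floor 56.3% were lower, with a median of -0.09. Sc5d, the desaturase of the sterol ring, was at 7.57, 7.82, 8.07, 8.47 and 6.82 in the order of arrays above. It was highest in the classical monocyte and 3.16-fold lower in the nonclassical one (-1.66). Hsd17b7, a reductase in the removal of methyl groups, was at 6.94, 7.07, 7.23, 6.90 and 6.09, a difference of -0.81 between the monocytes. Dhcr7, the last reductase before cholesterol, was at 7.38, 7.37, 8.01, 7.38 and 6.84, so that cMoP was its high array and the difference between the monocytes was -0.54. The other 5 differed by less than 2-fold. Ebp, a sterol isomerase, differed by -0.94, Cyp51, the lanosterol demethylase, by -0.90, and Tm7sf2, a sterol reductase, by -0.86. Nsdhl and Msmo1, which act in demethylation, differed by -0.58 and -0.57.

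Seen over all 5 arrays, the sterol enzymes tended to be highest in the classical and lowest in the nonclassical monocyte. These orderings were looked for after the values were seen. The classical monocyte held the single highest value for 9 of the 16 enzymes past the floor (Hmgcs1, Mvd, Idi1, Fdft1, Cyp51, Tm7sf2, Msmo1, Ebp and Sc5d), as it did for 17.8% of the 11058 genes past the floor on any array. The widest of these margins, that of Mvd, was 0.88. The nonclassical monocyte held the single lowest value for 12 of the 16, and for 20 of the 31 genes of the whole list past the floor, against 37.4% of all genes. It was lowest by 2-fold or more for 7 of the 31 (Idi1, Fdps, Sqle, Fasn, Scd2, Elovl6 and Fads1), against 6.5%.

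Of the 5 genes that sense sterol and control the path, 0 were 1.5-fold apart between the monocytes, where 8.05% of all genes were higher and 21.7% lower. With 5 genes this does not set them apart from all genes. Srebf2 was at 8.42 in MDP, 8.61 in CDP, 8.14 in cMoP, 8.79 in the classical and 8.49 in the nonclassical monocyte. Srebf1 was at 7.66 on 4 arrays and 7.74 in CDP, and the probe set was not shown to tell its isoforms apart. Scap was at 8.23 and 8.41 in the classical and nonclassical monocytes and between 8.71 and 8.87 in the progenitors. Insig1, itself a known SREBP target, was highest in the classical monocyte at 9.58 and between 9.07 and 9.32 elsewhere, and Insig2 ranged over 0.29 log2 units. An array of this kind measures the mRNA of these factors, not their cleavage. Stard4, a sterol carrier of the cytosol, was lowest in the nonclassical monocyte at 6.99 and between 7.37 and 7.43 on the other arrays.

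Genes of mitosis were also lower on the nonclassical array. All 18 of the mitosis genes on a list of cell cycle markers were 2-fold or more lower in the nonclassical than in the classical monocyte, against 9.82% of all genes. On the nonclassical array 4 of 18 were at or above the floor, where all 18 were on each other array. The median difference of the 18 was -4.38. Their median level was 9.91 in the classical and 5.75 in the nonclassical monocyte. In the classical monocyte against cMoP, by contrast, 0 of the 18 were 2-fold apart, where 7.01% of all genes were higher and 4.4% lower. The median difference of the 18 was 0.13 there. Of the neutrophil markers, 4 of the 7 past the floor were 2-fold lower in the nonclassical monocyte (9.82% of all genes) and 0 higher (3.55%). The median levels over the 12 were 6.76 and 5.62 in the classical and nonclassical monocyte, while the median of the 12 differences was -0.27. The part of either in the differences of the sterol and fatty acid genes was not tested.

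**Figure D3:**
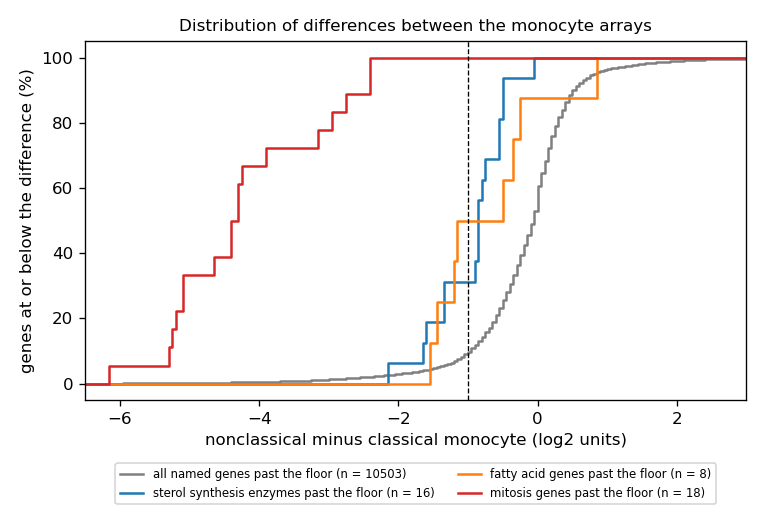
Cumulative share of genes (y axis, percent) by the difference between the nonclassical and classical monocyte arrays (x axis, log2 units), for all named genes, sterol synthesis enzymes, fatty acid genes and mitosis genes past the floor, with a dashed line at 2-fold lower. The sterol enzymes (median -0.87) and fatty acid genes (median -0.85) lie left of all genes (median -0.09) and right of the mitosis genes (median -4.38).

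Part of the fatty acid genes were higher in all progenitors than in both monocytes, an ordering by any margin that was counted after the values were seen. Of the 9 past the floor, 6 (Acaca, Fasn, Scd2, Elovl6, Fads1 and Fads2) were higher on each progenitor array than on either monocyte array, against 21.3% of all genes. Acly, Elovl1 and Elovl5 did not follow this ordering. Fads2 was under the floor in cMoP (6.09) and in both monocytes (5.57 and 5.45), so its margin between cMoP and the monocytes lies wholly under the floor. Of the whole list 9 of 31 followed the ordering, the others being Fdps, Hsd17b7 and Scap. In 0 of 31 both monocytes were above all progenitors, where 18.0% of all genes had that order. With a margin of 2-fold, 0 of 31 had the progenitors above (0.787% of all genes) and 0 of 31 the monocytes above (2.38%).

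Fasn, fatty acid synthase, was at 8.48 in MDP, 8.08 in CDP, 8.29 in cMoP, 7.46 in the classical and 6.28 in the nonclassical monocyte. The 3 progenitors lay together, the classical monocyte lay below them, and the nonclassical monocyte was 2.27-fold lower again (-1.18). Acaca, the acetyl-CoA carboxylase that feeds it, was at 8.33, 7.79, 8.03, 7.68 and 7.29, in the same order of arrays as Fasn and over a range of 1.04 log2 units against 2.20 for Fasn. The second probe set of Acaca was at 6.72, 6.42, 6.66, 6.42 and 6.05, with CDP and the classical monocyte equal at this precision. Acly, which supplies acetyl-CoA from citrate and so serves both paths, was highest in the classical monocyte at 9.45 and lowest in the nonclassical one at 8.92. The elongases differed from each other. Elovl6, which extends the product of Fasn, was at 9.08, 8.87, 8.58, 8.41 and 6.93, and 2.79-fold lower in the nonclassical than in the classical monocyte (-1.48). Elovl5, which extends polyunsaturated chains, was at 10.51, 10.04, 10.74, 10.32 and 11.17, highest in the nonclassical monocyte, where it was 1.80-fold above the classical one (0.85). Elovl1, which acts on very long chains, was at 10.26 and 10.25 in cMoP and the classical monocyte and ranged over 0.58 log2 units.

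The largest ranges of the list were those of Fads1 and Fads2, at 3.26 and 3.23 log2 units. These desaturases, which place the double bonds that turn dietary essential fatty acids into long polyunsaturated ones, are neighbours on chromosome 19 with 0 protein-coding genes between them in RefSeq. Fads2 was at 8.10 in MDP, 8.68 in CDP, 6.09 in cMoP, 5.57 in the classical and 5.45 in the nonclassical monocyte. It was above the floor in MDP and CDP and below it on the other 3 arrays. Fads1 was at 8.04, 8.33, 7.03, 6.65 and 5.08, with the same high arrays but with intermediate values in cMoP and the classical monocyte. Its difference between the monocytes was -1.57, and since the lower value lies under the floor the fold is given only as at least 1.3. Fads3, the next gene on the chromosome and not one of the 33, was at 7.0, 7.80, 6.42, 5.87 and 6.44, so that CDP was the high array for all 3 neighbours. Scd2, a stearoyl-CoA desaturase that makes monounsaturated fatty acids, was at 9.32, 8.65, 9.18, 7.95 and 6.74. It was lower in the classical monocyte than in any progenitor, and 2.32-fold lower again in the nonclassical monocyte (-1.21). Its paralog Scd1 lay between 3.68 and 4.61 on all arrays, under the floor.

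**Figure D4:**
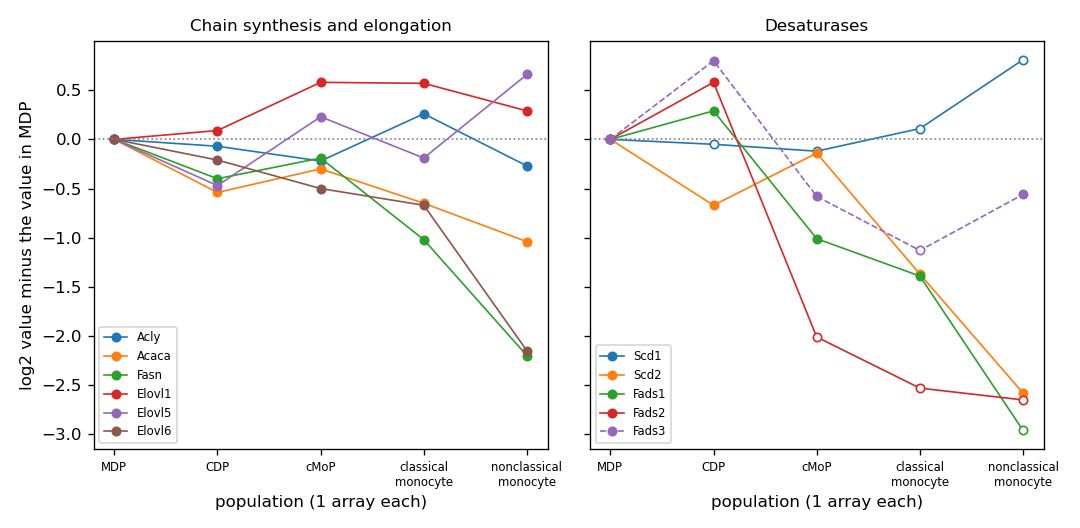
Fatty acid genes on the 5 arrays (x axis) as the log2 value minus that in MDP (y axis), with chain synthesis and elongation genes on the left and desaturases, with Fads3 dashed, on the right, and open circles for values under the floor. Fads1 and Fads2 are highest in CDP and lower from cMoP onward. Fasn, Elovl6 and Scd2, like Fads1 and Fads2, reach their lowest values in the nonclassical monocyte.

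Among the progenitors and at the step to the classical monocyte, few genes of the list were 2-fold apart. In CDP against MDP, 0 of 31 were higher (1.15% of all genes) and 0 lower (1.06%). The differences ran from -0.66 (Scd2) to 0.72 (Fdps), and 6 of the 33 genes had exactly equal values. In cMoP against MDP, 0 of 31 were higher (1.44% of all genes) and 2 lower (1.4%), Fads2 by at least 3.56-fold (-2.01) and Fads1 by 2.01-fold (-1.01). Fads1 passed the 2-fold line by little, and was at -0.90 with each array centred on its median and -0.89 after quantile normalization. In cMoP against CDP, 0 of 31 were higher (3.23%) and the same 2 lower (2.2%), Fads2 by at least 5.33-fold (-2.59) and Fads1 by 2.46-fold (-1.30). With each array centred, Nsdhl was also 2-fold higher in cMoP (1.03). CDP and cMoP are the 2 progenitors that the sort separated by CD135, and of 8 dendritic cell markers past the floor, Flt3 among them, 7 were 2-fold lower in cMoP, and the median level of the 12 on that list was 7.30 in CDP and 5.19 in cMoP. Their part in the Fads difference was not tested. The comparisons with MDP share 1 array, as do those with CDP and with cMoP.

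The classical monocyte was compared with cMoP, the progenitor of its branch. Of 30 genes past the floor 0 were 2-fold higher, where 7.01% of all genes were, and 1 was lower, where 4.4% were. That gene was Scd2, at 2.35-fold (-1.23). Fasn differed by -0.83 and Fdps by -0.66, while the largest positive differences were those of Mvd (0.88), Fdft1 (0.84) and Srebf2 (0.65). The median difference was 0.15 over the sterol synthesis enzymes and -0.37 over the fatty acid genes. Over the 33 genes it was 0.0 here and in each comparison among the progenitors, as over all named genes.

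Other genes around the pathway were taken from lists by function. Of 10 measured genes that supply acetyl-CoA and NADPH, 9 were past the floor between the monocytes. Of these, 2 were 2-fold higher in the nonclassical than in the classical monocyte (3.55% of all genes) and 2 lower (9.82%). Nadk, the kinase that makes NADP, was at 8.37, 8.44, 9.32, 10.40 and 11.44 from MDP to the nonclassical monocyte, highest in the nonclassical monocyte and lowest in MDP. Idh1, a source of cytosolic NADPH, was at 9.31, 8.67, 10.24, 10.76 and 9.49, and Pgd, of the pentose phosphate path, at 9.69, 9.27, 11.02, 10.97 and 10.01, so that both were highest in cMoP and the classical monocyte. Between the monocytes Idh1 was among the 2-fold lower genes (-1.27) and Pgd was not (-0.96). Acss1, a mitochondrial acetyl-CoA synthetase, was at 7.52, 7.63, 6.77, 7.07 and 8.41, highest in the nonclassical monocyte. Between the monocytes, 0 of the 9 genes of the isoprenoid branch past the floor were 2-fold apart, and likewise 0 of the 9 genes of SREBP processing and turnover. With so few genes, this does not set either list apart from all genes. In cMoP against CDP, 1 of 11 and 1 of 9 genes past the floor in these lists were higher, against 3.23% of all genes. Nus1, a subunit of the enzyme that makes dolichol precursors, was at 8.91, 8.53, 9.59, 8.93 and 8.38. Ube2g2, a ubiquitin-conjugating enzyme of the endoplasmic reticulum, was at 6.97, 7.0, 8.30, 7.52 and 7.67, and was also 2-fold higher in cMoP than in MDP (1.33). Within the sterol enzymes outside the list, Tmem97, a sterol-responsive membrane protein, was at 8.89, 8.21, 9.36, 7.81 and 6.95. Of 23 genes that act with fatty acid synthesis, 1 of the 14 past the floor was 2-fold lower in the nonclassical monocyte (9.82% of all genes) and 0 higher (3.55%). That was Elovl7, an elongase, at 6.32 in the classical and 5.03 in the nonclassical monocyte, so nearly all of its difference lies under the floor of 6.27. Hacd4, a dehydratase of the elongation cycle, was at 5.80 in cMoP and 8.98 in the classical monocyte.

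Genes of sterol trafficking and of the oxysterol response included some that were higher in the nonclassical monocyte. Of 14 past the floor, 3 were 2-fold higher in the nonclassical than in the classical monocyte (3.55% of all genes) and 1 was lower (9.82%). The higher ones were Abca1 (5.75 and 7.77 in the classical and nonclassical monocyte), Abcg1 (7.81 and 9.23) and Mylip (7.05 and 8.34). All 3 are known targets of the oxysterol receptor LXR, and the first 2 are exporters of cholesterol. No list of LXR targets was counted, and a response of LXR was not tested. Mylip was named after its values were seen. Cyp27a1, which makes an oxysterol, was at 7.30, 8.26, 6.86, 9.33 and 9.74 and so highest in both monocytes. The lower one was Stard3nl, a tether between endosomes and the endoplasmic reticulum, at 9.21 and 7.81.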

How the data were processed

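RNA from 5 sorted populations was biotin-labelled and hybridised to 1 array each, per the labels' protocols. The deposited table holds log2 values for 35556 probe sets, made by the authors. Background correction, normalization, software and the base of the logarithm: not given in the sources used here. Base 2 was read from the values (1.59 to 14.24). Array medians lay between 6.02 and 6.16. Of the probe sets, 21789 carry 1 gene symbol in the platform annotation, 1621 several and 12146 none. Groups came from the sample titles. Differences, counts and medians were computed with Python 3.11.15 and pandas 2.3.3. The counting was run on simulated data with large shifts in genes well above the floor, which checks the code and not the results. No test was possible with 1 array per population, and precision is limited by the number of arrays. Every measured member was named, with all 5 values where its range was 1 log2 unit or more. Of other pathway lists, the up to 4 genes of largest range among those 2-fold apart in a comparison were named, and Mylip besides. Of the marker lists other than the neutrophil list, the gene with the highest value was named. The members and lists were chosen with earlier results of these data known. Alternatives were the floor, the scaling, the probe set rule and the fold. RefSeq windows of GRCm38.p6 gave the promoters, and the array's own build was not needed. Planned comparisons of paralog proteins were not made.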

Additional observations from a re-analysis of the deposited data

How the results depend on the processing

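No paired analysis was possible because each population has 1 array. Centring changed differences by between -0.09 and 0.11 log2 units. The 14 single differences past 2-fold kept their direction under each alternative run. With the floor at the upper quartile (7.93), 5 of 14 members rather than 9 of 30 were 2-fold apart between the monocytes, without Idi1, Sqle, Fasn and Fads1; the median member difference became -0.73 there and -0.17 for the classical monocyte against cMoP, the nonclassical monocyte was lowest for 12 members and the classical monocyte highest for 7. Fewer members were counted under that floor. With no floor, 1 of 33 members, Scd1, had both monocytes above the progenitors, against 11.2% of all genes. Centring and quantile normalization each left 1 member, Fads2, 2-fold apart between cMoP and MDP, and centring put the median at 0.11 for cMoP against MDP and against CDP. Centring added Nsdhl as 1 higher member in cMoP against CDP (1.03) and Ebp as a lower one in the nonclassical against the classical monocyte (-1.03), where quantile normalization added Elovl5 as 1 higher member (1.07). At 1.5-fold, 3 of 31 members were apart in CDP against MDP, 2 higher (4.1% of all genes) and 1 lower (6.13%). In cMoP against MDP 4 of 31 were, 2 higher (5.52%) and 2 lower (5.51%). In cMoP against CDP 5 of 31 were, 3 higher (12.0%) and 2 lower (6.83%). In the classical monocyte against cMoP 8 of 30 were, 3 higher (13.8%) and 5 lower (12.3%). Between the monocytes 16 of 30 were, 1 higher (8.05%) and 15 lower (21.7%). Between all progenitors and both monocytes 2 of 31 were (7.66%). By that margin 12 of 31 were lowest in the nonclassical monocyte (14.1%). All differences rest on single arrays.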
